A study of Caenorhabditis elegans with 2 samples.

Results

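The cytosolic ribosomal protein genes were taken as the protein-coding genes whose names start with *rpl-* (large subunit) or *rps-* (small subunit) in the Ensembl annotation of the *Caenorhabditis elegans* assembly WBcel235. There were 78 of them among 19985 protein-coding genes, 47 for the large subunit and 31 for the small one. Binding of the protein MADF-2 was mapped by chromatin immunoprecipitation and sequencing in whole late embryos, 3 hours after synchronisation by bleaching, from animals of both sexes pooled. The strain was OP587, genotype unc-119(tm4063) III; wgIs587, in which the integrated transgene adds a C-terminal GFP-FLAG tag to MADF-2, and the precipitating antibody was against GFP. The samples analysed here are 2 biological replicates of 1 group, which share the allele and the transgene, with no treated, mutant or untagged group beside them. Neither the sequence that drives the transgene nor the state of the native *madf-2* copy is given in the sources used here, and control libraries were not analysed here. A list of regions cannot show which cells of the embryo gave the signal, so the labelled tissue was not checked against marker genes.

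Ribosomal proteins assemble with ribosomal RNA into the large subunit, which joins amino acids, and the small subunit, which reads the messenger RNA. The proteins are needed in about equal amounts, and in animals most of them come from single genes spread over the chromosomes that are transcribed strongly in growing cells. MADF domains are DNA-binding folds related to the Myb domain.

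The authors deposited lists of candidate regions, each with a summit and a signal value, which is their own value on a scale that the sources do not give and is used here only to rank regions within a list. Replicate 1 had 30000 regions, replicate 2 had 27350, and the list made from both replicates pooled had 30000. Their filter for reproducible regions kept a set of optimal regions, which were exactly the strongest pooled regions, down to a signal value of 69.6. The other pooled regions include background by design, so a summit among them is a candidate and no evidence of binding. The lists do not give the depth of sequencing, which is unknown here. A gene was counted as carrying a summit where its window held one, the window starting 1000 bp upstream and ending 200 bp downstream of the annotated 5′ end, and the strongest such summit stood for the gene. All positions are 1-based in the build ce11 (WBcel235).

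Ribosomal protein genes of both subunits carried strong MADF-2 summits. An optimal summit lay in the window of 25 of the 78 genes (32.1%), against 2.81% of all protein-coding genes. The large subunit had 15 of 47 (31.9%) and the small subunit 10 of 31 (32.3%). Among the 100 strongest pooled regions were those of 6 members, *rpl-3*, *rpl-35*, *rpl-15* and *rpl-20* of the large subunit and *rps-20* and *rps-19* of the small subunit, which is 7.69% of the members against 0.27% of all genes. Among the 3000 strongest were those of 45 members (57.7% against 7.79%). Any pooled summit, including weak candidates, was present for 70 members (89.7%), against 35.7% of all genes. No test was made of these differences, since the genes are not replicates and were chosen with earlier results of these data known.

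**Figure D1:**
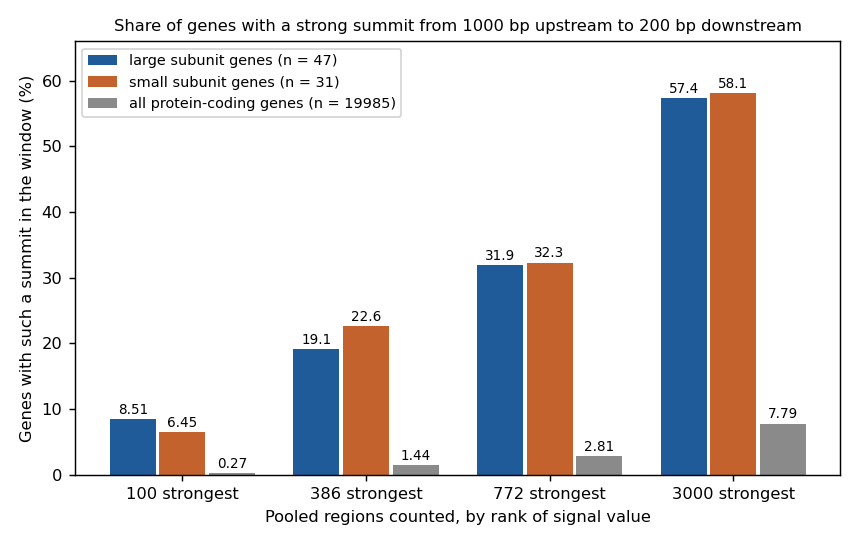
Bars show the percentage of large subunit genes, small subunit genes and all protein-coding genes that have a summit of at least the given rank in the pooled list within the window. The bars of the 2 subunits are close at each rank limit (31.9% and 32.3% at the limit of the optimal list), and all are above the bar for all genes (2.81%).

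The sequence under 5 of these summits was read from 50 bp before to 50 bp after the summit and is written 5′ to 3′ on the strand of the gene, from the RefSeq sequence of WBcel235. They show 3 of the strongest summits and 2 whose longer words recur at other members. Capitals mark the 7-letter word TACGGTA and 11-letter words that recur over the promoters of the family. The windows are chrIII:3867528-3867628 on the plus strand for *rpl-3*, chrIII:7854630-7854730 on the plus strand for *rpl-35*, chrIV:4750013-4750113 on the minus strand for *rpl-20*, chrIV:12391267-12391367 on the minus strand for *rps-23* and chrV:7776284-7776384 on the plus strand for *rps-30*, which shares the summit with *rpl-39* on the other strand. None of these bases lies in an annotated untranslated region.
rpl-3: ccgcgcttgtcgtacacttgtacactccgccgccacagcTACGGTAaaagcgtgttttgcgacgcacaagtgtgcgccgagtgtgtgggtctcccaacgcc
rpl-35: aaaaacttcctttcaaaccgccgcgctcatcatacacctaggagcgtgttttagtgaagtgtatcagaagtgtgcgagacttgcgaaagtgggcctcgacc
rpl-20: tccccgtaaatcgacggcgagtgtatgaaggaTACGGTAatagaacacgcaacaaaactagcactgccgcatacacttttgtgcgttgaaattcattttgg
rps-23: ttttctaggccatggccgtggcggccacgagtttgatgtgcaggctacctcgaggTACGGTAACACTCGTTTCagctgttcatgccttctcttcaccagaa
rps-30: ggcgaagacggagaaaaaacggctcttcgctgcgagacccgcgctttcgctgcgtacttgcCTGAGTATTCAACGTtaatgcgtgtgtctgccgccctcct

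The strongest member was *rpl-3*, whose product lies near the peptidyl transferase centre of the ribosome. Its pooled region, at chrIII:3867451-3867697, had a signal value of 294 and rank 24, with the summit 276 bp upstream of the gene. In replicate 1 the signal value was 157 (rank 24) and in replicate 2 it was 143 (rank 33) and the summits of the 3 lists lay from 276 to 290 bp upstream. *rpl-3* was thus high in both replicates, and no other protein-coding gene had this summit in its window.

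*rpl-35*, which encodes a protein at the exit of the tunnel for the nascent chain, followed with a pooled signal value of 211 (rank 58), 99 in replicate 1 (rank 91) and 102 in replicate 2 (rank 75). *rpl-15* had 196 in the pool (rank 72), 85.9 in replicate 1 (rank 135) and 107 in replicate 2 (rank 65). Both stood among the strongest regions of each replicate. *rpl-20* was less even between the replicates, with 60.2 in replicate 1 (rank 282) and 125 in replicate 2 (rank 46), and 187 in the pool (rank 84).

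In the small subunit *rps-20*, for a protein of the head of the subunit, came first with a pooled signal value of 192 (rank 74), and it had rank 85 in replicate 1 and rank 79 in replicate 2. *rps-19*, whose human counterpart is mutated in Diamond-Blackfan anaemia, had 183 in the pool (rank 91), 115 in replicate 1 (rank 57) and 68.7 in replicate 2 (rank 170). For *rps-19* the higher rank was in replicate 1, the reverse of *rpl-20*. After these 6 genes there was a step down to *rps-1* at 140 (rank 165).

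Next in the small subunit were *rps-28*, *rps-23* and *rps-26*. *rps-28* had a pooled signal value of 130 (rank 206), with 71.6 in replicate 1 and 60.3 in replicate 2. *rps-23*, whose product is part of the decoding centre, had 127 (rank 215), with 68.4 in replicate 1 and 54.2 in replicate 2. *rps-26*, whose product sits at the exit channel of the messenger RNA, had 118 (rank 243), with 53.5 in replicate 1 and 69.4 in replicate 2. All 3 were thus strong in each replicate, with ranks from 161 to 378.

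The genes of the 5S RNA-binding proteins differed in strength. *rpl-11.2* had a pooled signal value of 106 (rank 306), with rank 495 in replicate 1 and 286 in replicate 2. *rpl-5* had 81.6 (rank 539), with rank 677 in replicate 1 and 887 in replicate 2. *rpl-12*, which encodes a protein at the base of the stalk, had 114 (rank 259), with 75 in replicate 1 (rank 182) and 42.5 in replicate 2 (rank 515). The other optimal members of the large subunit were *rpl-7A* (112), *rpl-14* (100), *rpl-22* (95.4), *rpl-43* (92.4), *rpl-41.2* (87.3), *rpl-24.2* (85), *rpl-7* (76.5) and *rpl-39* (71.7). Those of the small subunit were *rps-12* (rank 337), *rps-24* (90), *rps-18* (77.4) and *rps-30* (71.7).

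Over the 25 optimal members the signal value had a median of 106 (71.7 to 294), and over the 537 other genes with an optimal summit a median of 95.6 (69.6 to 1036). The median was 100 for the 15 large subunit genes and 122 for the 10 small subunit genes. The ranges of the 2 subunits overlapped over most of their length, from 71.7 to 192. The highest members were all well below the strongest region of the list, at 1036.

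**Figure D2:**
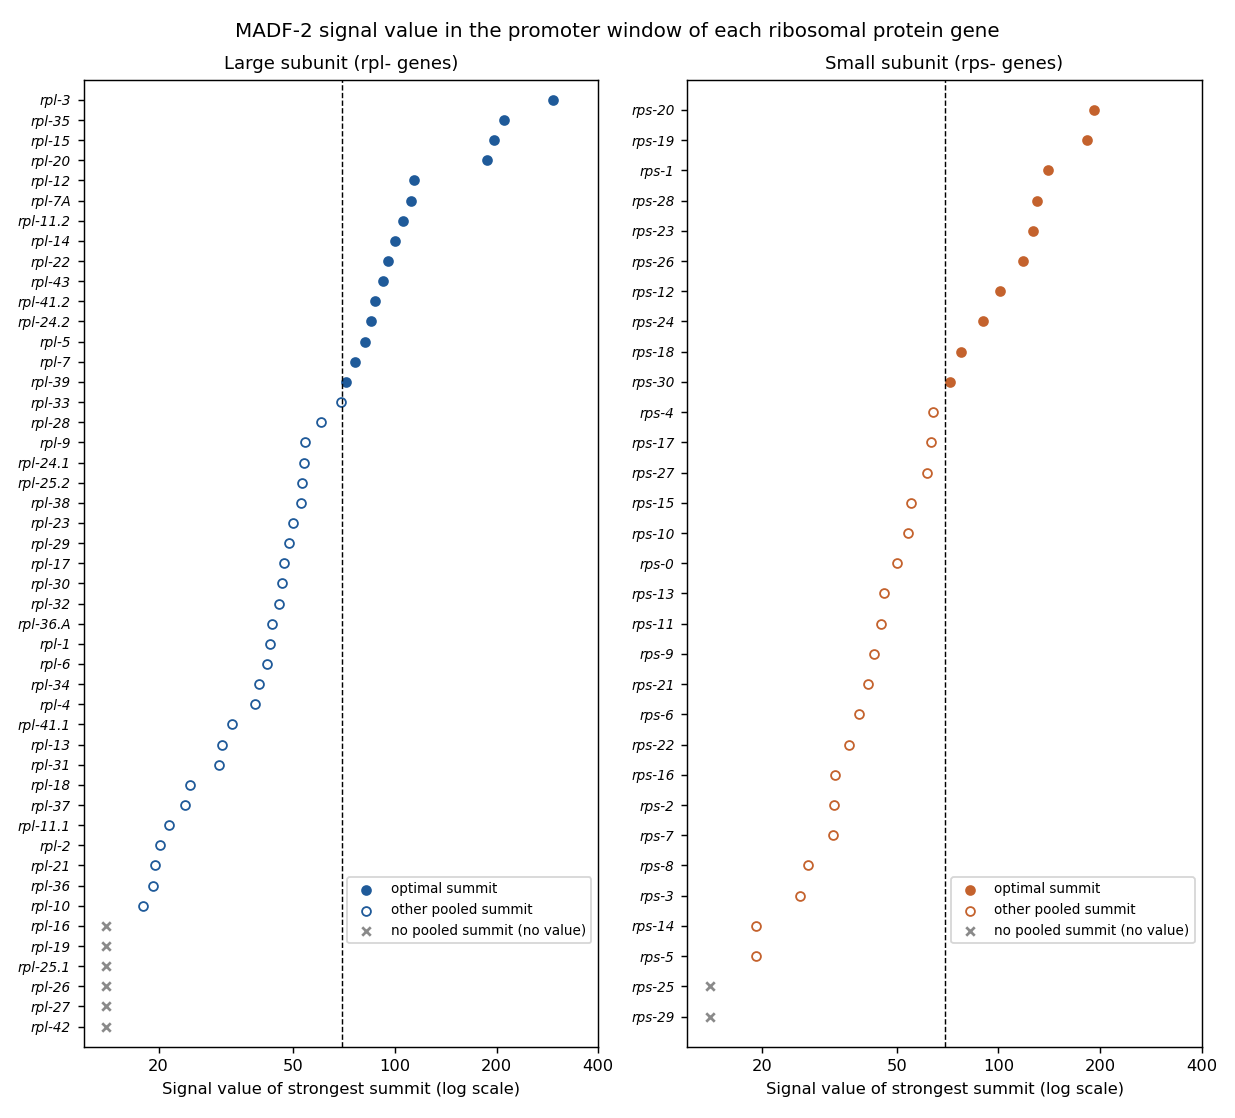
Each point is the signal value (log scale) of the strongest pooled summit in the window of a gene, for 47 large subunit genes (left) and 31 small subunit genes (right). Filled points are optimal summits, open points other pooled summits and crosses, placed left of all values, genes with no pooled summit; the dashed line is the lowest optimal signal value, 69.6. Values fall gradually from 294 for *rpl-3* to 18 for *rpl-10*, with no gap at the line.

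The optimal threshold cut through a gradual decline. Just inside it were *rpl-39* and *rps-30*, with 1 shared summit of signal value 71.7 (rank 720). Just outside were *rpl-33* at 69.5 (rank 779), *rps-4* at 64 (rank 946) and *rps-17* at 63.1 (rank 967). The 45 members with only other pooled summits had a median signal value of 41.8 (18 to 69.5), and the 6520 other genes in that position had a median of 27.1 (17.6 to 69.5). The weaker members thus also lay above the middle of the weaker genes, as a description of these lists.

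The remaining 8 members had no pooled summit in their window: *rpl-16*, *rpl-19*, *rpl-25.1*, *rpl-26*, *rpl-27*, *rpl-42*, *rps-25* and *rps-29*. For 6 of them a region was listed in at least 1 replicate, the highest being *rps-25* at rank 4744 of replicate 2. *rpl-19* and *rpl-25.1* had none in any list. When each annotated transcript start was used instead of the start of the gene, *rpl-19* gained a pooled summit of signal value 42.4 (rank 3102), 255 bp upstream of a start that lies 612 bp inside the gene. No other gene of the 8 gained one that way.

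Where the family holds 2 genes of the same name told apart by a digit after a point, the 2 differed in signal. *rpl-11.2* had a pooled signal value of 106 and *rpl-11.1* had 21.5 (rank 20923), with a region for the latter in replicate 1 alone. *rpl-41.2* had 87.3 and *rpl-41.1* had 33 (rank 6915). *rpl-25.2* had 53.3 (rank 1510) and *rpl-25.1* had no summit. *rpl-24.2*, a relative of a yeast and human factor that acts in assembly of the large subunit, had 85 and *rpl-24.1*, the ribosomal protein itself, had 53.9 (rank 1465). In 3 of these 4 pairs 1 gene was optimal, and in *rpl-25* neither was. Genes told apart by a letter, which are named after distinct human proteins, were not counted as such pairs: *rpl-7* (76.5) and *rpl-7A* (112) were both optimal, and *rpl-36* (19.2) and *rpl-36.A* (43.4) were not.

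The 2 replicate lists gave similar counts when the top regions of each were taken, meaning as many of its strongest regions as there were optimal ones. The top regions of replicate 1 included those of 22 members (28.2%, against 2.49% of all genes), and those of replicate 2 included 25 members (32.1%, against 2.99%). Both included 17 members (21.8%, against 1.72%). All 25 optimal members were in the top regions of at least 1 replicate, 5 in replicate 1 alone and 3 in replicate 2 alone. The optimal list was made from these lists and the pooled one, so that overlap is no independent check.

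Another 5 members, *rps-17*, *rps-27*, *rpl-28*, *rpl-25.2* and *rps-11*, were in the top regions of replicate 2 without being optimal, and no such member was found in replicate 1. *rps-11* had rank 704 in replicate 2 and no region in replicate 1. *rpl-25.2* had rank 653 in replicate 2 and 12125 in replicate 1. For these genes the strength rested on 1 replicate. Over all protein-coding genes the top regions of replicate 2 also reached more genes, 597 against 498 for replicate 1, with 344 in both. The lean to replicate 2 thus marks no trait of the family.

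Over the 62 members with a region in both replicates, the Spearman correlation of their ranks was 0.72. Within the 25 optimal members it was 0.62, and within the 35 members whose pooled summit was not optimal it was 0.07. These are descriptions across genes, which share both libraries and in a few cases a summit. The 2 replicate summits of an optimal member lay a median of 16 bp apart, 20 of 25 of them within 50 bp, and the farthest, for *rps-24*, was 233 bp. For the other members with a pooled summit the median was 66 bp, with 13 of 35 within 50 bp. Weak members were thus placed less alike by the 2 replicates, and 23 of these 35 had the better rank in replicate 2. All protein-coding genes taken the same way behaved likewise, with 78.1% of optimal and 28.3% of other pooled summits within 50 bp, against 80% and 37.1% for the members. Of 3146 such genes that were not optimal 1798 had the better rank in replicate 2.

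**Figure D3:**
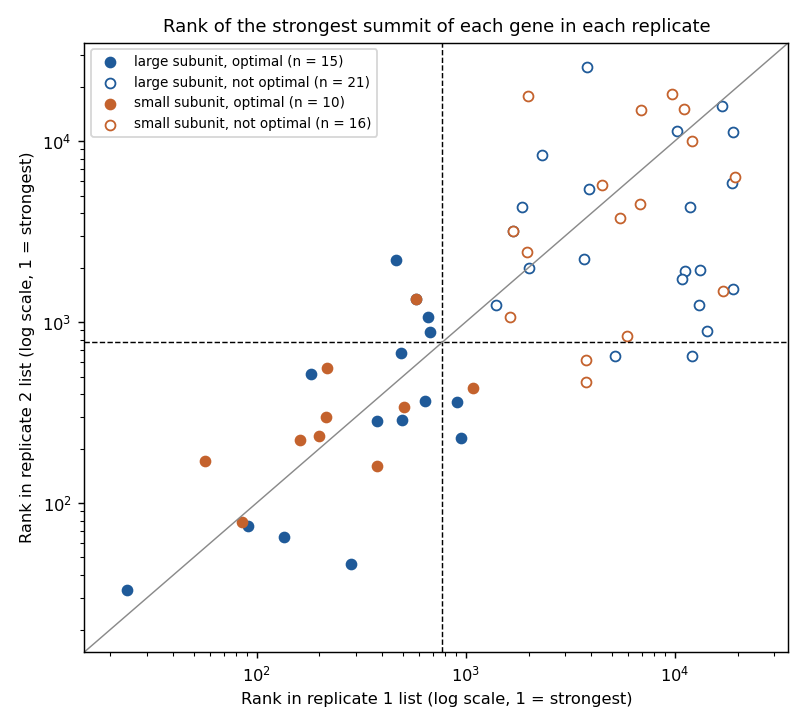
Each point is a ribosomal protein gene with a region in both replicate lists (62 genes), placed by the rank of its strongest summit in replicate 1 and in replicate 2, both on log scales; filled points are optimal and dashed lines mark the rank equal to the number of optimal regions. Optimal genes lie along the diagonal at low ranks, whereas the others scatter, with more points below the diagonal (better rank in replicate 2).

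The summits lay at a narrow range of distances. The median optimal summit was 286 bp upstream of the annotated 5′ end (quartiles 244 and 396, range 0 to 735), and for other genes with an optimal summit it was 258 bp (quartiles 151 and 475). From 200 to under 500 bp upstream were 19 of 25 optimal members (76%), against 38% of the 537 other genes. Among members with only other pooled summits the share was 31 of 45 (68.9%), against 26% of 6520 other genes. Large and small subunit genes were alike in this, with medians of 292 and 275 bp over the optimal members. In worms many annotated 5′ ends mark where a leader is spliced on in trans, downstream of where transcription begins, and the distances are approximate for that reason. The leader between that end and the first coding base was short, with a median of 8 bases over the 78 genes, and from the first coding base the optimal summits lay a median of 310 bp upstream.

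**Figure D4:**
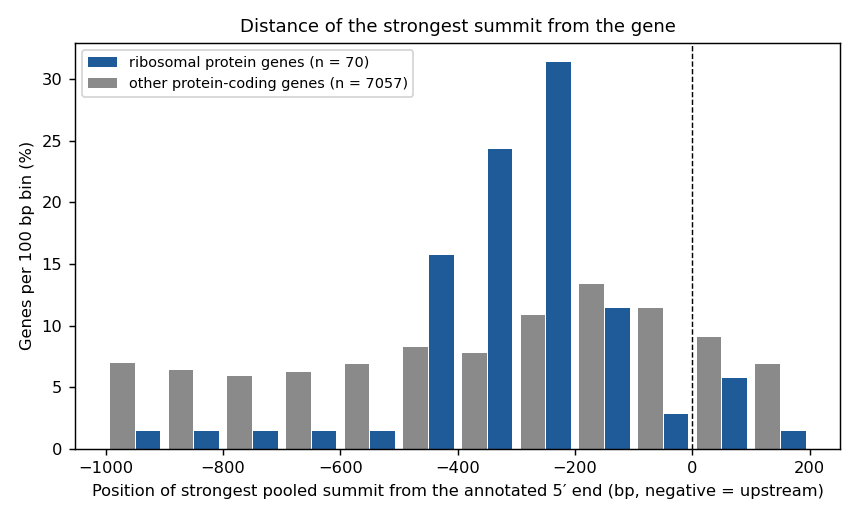
Bars give the percentage of genes whose strongest pooled summit falls in each 100 bp bin around the annotated 5′ end (negative is upstream), for 70 ribosomal protein genes and 7057 other protein-coding genes. Of the ribosomal protein genes 31.4% fall from 200 to 300 bp upstream and 24.3% from 300 to 400 bp, whereas no bin of the other genes holds over 13.4%.

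A few members departed from that range. *rpl-12* had its summit at the annotated 5′ end (0 bp upstream), with 2 bp in replicate 1 and 7 bp downstream in replicate 2, and *rpl-7A* had it 27 bp upstream, with 24 and 29 bp in the replicates. The farthest were *rpl-43* at 735 bp and *rps-18* at 627 bp. The summit of *rps-18* lay inside the neighbouring gene *sec-61.A*, which encodes a subunit of the channel that moves proteins into the endoplasmic reticulum, and that of *rpl-24.2* inside *C03D6.1*. Including *rpl-12* itself, 3 optimal members had the summit inside a protein-coding gene. A like count over all genes with an optimal summit is not given here, so this marks no trait of the family.

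Many of these summits belonged to divergent gene pairs, so the signal cannot be assigned to the ribosomal protein gene alone. The strongest optimal summit was also in the window of another protein-coding gene for 17 of 25 members (68%), against 55.3% of all genes with an optimal summit. For the strongest pooled summit it was 46 of 70 (65.7%), against 29.5%. The next counts have no like count over all genes with an optimal summit, so they mark no trait of the family. Of the optimal members 16 had a divergent partner, and the partner was the closer gene for 7. Among those were *rps-20*, 230 bp from the summit with *ekl-4* at 167 bp, and *rpl-22*, 228 bp from it with *ify-1*, the worm securin, at 209 bp. *rps-26* was 407 bp away and *tmem-107*, which encodes a membrane protein of the cilium base, 50 bp.

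In other pairs the ribosomal protein gene was closer. *rpl-12* shared its summit with *lin-54*, a DNA-binding subunit of the DREAM complex, which was 393 bp away. *rpl-7* (293 bp) shared one with *rab-11.1*, which encodes a GTPase of membrane recycling (688 bp), and *rps-1* (252 bp) with *ifet-1*, which encodes a translational repressor (516 bp). *rps-23* and *dpm-3*, which encodes a subunit of an enzyme of sugar transfer, were nearly equally far, at 264 and 270 bp. The partners named here thus have unlike roles.

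Members shared a summit with each other in 3 pairs, each of a large and a small subunit gene. *rpl-39*, whose product lines the exit tunnel, and *rps-30*, whose human counterpart is made as a fusion with a ubiquitin-like protein, shared the optimal summit of signal value 71.7, 255 and 244 bp from it. *rpl-24.1* and *rps-10* shared a pooled summit of signal value 53.9 (rank 1465). *rpl-36* and *rps-14* shared one of 19.2 (rank 25907). Counts of genes therefore exceed counts of summits, and the 25 optimal members stood for 24 distinct summits.

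Noncoding genes were close to some of them. Within 300 bp of the summit lay a snoRNA gene for 2 optimal members, *rps-12* and *rps-26*, and another noncoding gene for 6. Like counts over all genes with an optimal summit are not given here, so these mark no trait of the family. Without all regions near tRNA, snoRNA or snRNA genes, a setting chosen after seeing the data, 23 members had an optimal summit (29.5%) against 2.51% of all genes.

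Optimal members were found on each chromosome, in 7 of 23 members on I, 3 of 10 on II, 4 of 18 on III, 8 of 17 on IV, 2 of 8 on V and 1 of 2 on X. Over all genes the share with an optimal summit ran from 1.78% on V to 3.94% on III. No chromosome was without one, and IV had the most.

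Genes of 3 other lists from the translation apparatus were read in the same way. Of 6 other genes for cytosolic ribosome proteins or proteins bound to the ribosome (*rla-0*, *rla-1*, *rla-2*, *ubl-1*, *ubq-2* and *rack-1*), all had a pooled summit and 0 had an optimal one. The best of them was *ubl-1*, at rank 1425. Of 8 elongation factor genes 4 had an optimal summit: *eef-1A.1* (rank 148), *eef-1A.2* (rank 460), *eef-2* (rank 268) and *iff-2* (rank 225). Of 26 ribosome assembly genes found in the annotation 2 had one, *fib-1*, for the snoRNA-guided methyltransferase fibrillarin (rank 453), and *nol-58* (rank 756), which is 7.69%. The level over all genes was 2.81%, and these lists are too short to be read much further.

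Within 50 bp of the summits, the members' optimal windows had a median GC content of 51.5% (24 windows), other optimal promoter windows 50.5% (385), the members' other pooled windows 46.5% (43) and other pooled promoter windows 42.6% (6795). GC content thus went with strength in both groups of genes. A fixed set of 7 motifs was looked for on both strands. TATAAA was in 0 of 24 optimal member windows and 2.08% of other optimal windows, CCGCCC in 3 (12.5%) and 11.2%, GAGAGA in 4 (16.7%) and 22.3%, and TTTCAG, the 3′ splice site of worm introns, in 3 (12.5%) and 4.42%. TTTCAG was also in 9.3% of the members' other pooled windows and 14.7% of other pooled promoter windows, so 12.5% is not high among promoter windows. CACGTG was in 1 window (4.17%) and 2.34%, CTGCGTCT in 1 (4.17%) and 6.75%, and TTTTTT in 4 (16.7%) and 19.5%. With 24 windows, 1 window is 4.17%, so these shares rest on few windows.

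Short words that recur in the members' windows were looked for after the data were seen, so their shares are a description of the windows they were found in. TACGGTA, counted on both strands, was in 8 of 24 optimal member windows (33.3%), those of *rpl-3*, *rps-20*, *rpl-20*, *rps-1*, *rps-23*, *rpl-43*, *rps-18* and *rpl-7*. It was in 2.34% of 385 other optimal promoter windows, 11.6% of the members' 43 other pooled windows and 1.44% of 6795 other pooled promoter windows. The word ACACTCG was also in 8 of 24 (33.3%), against 2.08%, 11.6% and 1.04% in the same order. The 2 words overlap or adjoin in a longer sequence in *rps-23* and *rps-18*, as the *rps-23* line above shows, so they are not separate counts there. In 51 bp windows TACGGTA was in 7 of 24 (29.2%) optimal member windows, 1.82% of other optimal windows and 6.98% of the members' other windows, and ACACTCG in 4 of 24 (16.7%), 0.519% and 4.65%. With windows of 100 bp on each side of the summit the shares were 41.7%, 3.12% and 14% for TACGGTA and 33.3%, 3.12% and 14% for ACACTCG.

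Longer words were chosen by their letters alone, from the promoter windows of all 78 genes: those of 11 letters found in at least 7 member windows and at most 100 times in the genome. Of 13 such words 11 were kept after near-duplicates were dropped, and nearly all are overlapping pieces of 2 sequences. The first, around CGAGTGTTACC, has 24 copies in the genome, and 8 of them are in members' windows. A pooled summit lay within 110 bp of 7 of those 8 copies and an optimal one of 3. Of the 7 copies in windows of other genes 5 had a pooled summit and 1 an optimal one, and of the 9 copies elsewhere 3 and 0. One of those 9 is the copy near the downstream transcript start of *rpl-19*, 11 bp from the pooled summit named above.

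Of the 8 copies in members' windows 6 are printed with 9 flanking bases, on the strand that reads as written, the word in capitals. The other 2, in the windows of *rpl-24.1* (pooled summit of signal value 53.9 nearby) and *rpl-1* (the copy with no pooled summit within 110 bp), are not printed and their flanks were not compared. In the 6 printed copies the match runs beyond the 11 letters, to the 3 letters on each side of the word. All 29 bases of the *rps-18* line lie in an annotated untranslated region, and none of the other lines do. That region is not one of *rps-18*, since the word is 654 bp upstream of that gene. The summit nearby lies inside *sec-61.A*. *rps-23*, *rps-18* and *rpl-11.2* have optimal summits, with the summit 13, 27 and 46 bp from the middle of the word. *rpl-34*, *rps-13* and *rpl-21* have weaker ones (signal values 39.6, 26.8 and 19.5), at 21, 1 and 53 bp. For *rps-13* this is not the strongest summit of the gene, which has a signal value of 46 (rank 2391) and lies inside the gene. Positions are chrIV:12391290-12391318 (plus), chrIV:14825011-14825039 (plus), chrX:2242954-2242982 (minus), chrIV:12268558-12268586 (plus), chrIII:6375155-6375183 (minus) and chrIII:8130512-8130540 (minus), in the order of the lines.
rps-23: cagctgaaaCGAGTGTTACCgtacctcga
rps-18: cacgcaaaaCGAGTGTTACCgtaccttcg
rpl-11.2: agccagaaaCGAGTGTTACCgtagtcatt
rpl-34: catggtaaaCGAGTGTTACCgtagtcttc
rps-13: cacgcaaaaCGAGTGTTACCgtatacaac
rpl-21: cacttgaaaCGAGTGTTACCgtactgtgt

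The other sequence, around GAGTATTCAAC, has 67 copies in the genome, 9 of them in members' windows. A pooled summit lay within 110 bp of 7 of these 9 and an optimal one of 3. Of 10 copies in windows of other genes 2 had a pooled summit and 0 an optimal one, and of 48 copies elsewhere 3 and 0. Most copies away from the family thus had no pooled summit nearby, as a count with no test. Over the members' copies with a summit, it lay a median of 20 bp from the middle of the word (2 to 38 bp), and for the first word a median of 21 bp (1 to 53 bp). The members' copies of the 2 words lay a median of 230 bp (GAGTATTCAAC) and 275 bp (CGAGTGTTACC) upstream, where the members' summits lie in general, and the part of position in their nearness to summits was not tested. Another of the 11 words, GATTACCTGAA, sits at the annotated 5′ end of 9 members, away from most summits, and 1 of those 9 copies had a pooled summit within 110 bp.

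Of the 9 copies of GAGTATTCAAC in members' windows 7 are printed in the same way, to let the flanks be compared. The other 2, of *rps-20* (optimal summit of signal value 192, 29 bp from the middle of the word) and *rpl-13* (pooled summit of 30.8, at 8 bp), are not printed and their flanks were not compared. Of the printed copies *rps-30* and *rpl-7A* have optimal summits, at 18 and 20 bp. *rps-0* (signal value 50), *rpl-32* (45.5) and *rps-22* (36.2) have weaker ones, at 25, 2 and 38 bp. *rps-3* and *rpl-33* have no pooled summit within 110 bp of this copy, though that of *rps-3* is just beyond the limit (428 bp upstream of the gene, the word 316 bp). Positions are chrV:7776338-7776366 (plus), chrIV:4390623-4390651 (plus), chrIII:4754313-4754341 (minus), chrII:9057432-9057460 (plus), chrIII:1950425-1950453 (plus), chrIII:6206473-6206501 (plus) and chrII:7104864-7104892 (plus), in the order of the lines.
rps-30: tacttgcctGAGTATTCAACgttaatgcg
rpl-7A: tcgttgactGAGTATTCAACgtttgatag
rps-0: tcgttgactGAGTATTCAACgtttatacg
rpl-32: tcgttggctGAGTATTCAACgttttgtgt
rps-22: tgcttggctGAGTATTCAACgttaatgca
rps-3: ccgttgactGAGTATTCAACgcttcaacg
rpl-33: gagctttcgGAGTATTCAACatgttcatc

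In 6 of these 7 lines the same letters stand next to the word on either side, and *rpl-33*, which has others, is one of the printed copies without a summit. With each copy counted for 1 gene, 29 of the 78 members held at least 1 of the 11 words. Of these 29, 9 had an optimal summit, a share close to the 32.1% of all members. *rpl-39* and *rps-10* are not among the 29, though their windows hold copies counted for *rps-30* and *rpl-24.1*. By that count, holding any of the 11 words went with no higher share of optimal summits. The 29 include members that hold only GATTACCTGAA, of whose 9 member copies 0 had an optimal summit within 110 bp. The members that hold only that word are nevertheless in part optimal. *rpl-43* (rank 403) and *rps-28* (rank 206) are, through summits farther than 110 bp from the copy. *rpl-17*, *rpl-31*, *rps-21*, *rpl-11.1* and *rpl-38* are not. A share for the other words alone is not given here. The strongest members, *rpl-3* and *rpl-35*, and *rpl-20* hold none of the 11 words in the printed windows. *rps-20*, with a higher signal value (192) than *rpl-20* (187), does hold GAGTATTCAAC, 29 bp from its summit. A match of letters is a description of the window and was not tested as a site of binding.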

How the data were processed

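Region lists of the 2 replicates, of their pool and of the optimal set were deposited for the build ce11, and those were used; lists in another build were not used. Per the deposited file records, replicate and pooled lists were made from alignments with a control alignment, and the optimal list from those 3. The aligner and the peak caller were not given in the sources used here. Each region has a deposited signal value, which is a score from the authors’ processing, and the deposited summit offset, a position in bp, was added to the region start to place the summit. Ranks were taken within each list. Genes and 5′ ends came from Ensembl release 115 and sequence from RefSeq, both of WBcel235. Python 3.11.15, pandas 2.3.3, numpy 2.4.6 and scipy 1.17.1 were used, and the placing of summits was tested on simulated data. All results are descriptions without tests. Alternatives were other windows, thresholds, single replicates, transcript starts and ways to assign summits. Named genes were all optimal members, those next below, those without a summit, those sharing a summit and the comparison lists. The members and lists were chosen with earlier results of these data known. Whether the 2 biological replicates came from separate cultures is not stated, so their spread may be technical in part.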

Additional observations from a re-analysis of the deposited data

How the results depend on the processing

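With a window of 500 bp upstream and 100 bp downstream, 23 ribosomal protein genes had an optimal summit, and the values that moved were the share of all genes (2.15%), the median signal value (112) and the median distance (285 bp). With one of 2000 bp upstream and 500 bp downstream there were 27, and those 3 values were 3.8%, 100.6 and 292 bp. In the stronger 386 optimal regions there were 16 members (20.5%), 9 of the large subunit, against 1.44% of all genes, with a median signal value of 128 and a median distance of 280 bp. Giving each summit only to the nearest 5′ end left 17 members (21.8%), 6 of the small subunit, against 2.01%, with a median distance of 293 bp, 11 members among the strongest of both replicates and, by construction, 0 sharing a summit. With genes that have any pooled summit as the denominator, the shares were 35.7% and 7.89%. With a single replicate the number of members was 22 to 25 (28.2% to 32.1%), the median signal value 54.2 to 57 on the scale of those lists and the median distance 290 bp. No setting brought the members' share near that of all genes. The other 55 values, including those by transcript start, by overlap of the region, with overlapping regions merged and without regions near tRNA, snoRNA or snRNA genes, stayed within the limits set for no change. For counts that limit was a factor of 1.5, so the fall from 25 to 17 members passed as no change. The limit for the median distance was far narrower, so even 285 bp in place of 286 bp was labelled as moved. No paired analysis was possible because there is 1 group. The 2 replicates and the unknown depth limit the precision, and weak regions include background.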
